A study of Mus musculus with 34 samples.

Results

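Colonic macrophages from mice whose libraries are titled ko_ly6g were compared with those from mice titled ko_igg, over all genes of the neutrophil-depletion table. The comparison holds 6 of the 34 libraries of the series: ko_ly6g 5, 6 and 7 and ko_igg 14, 16 and 18, chosen by the endings of their column titles. Both groups carry the title ko, which the labels do not spell out, while the series title concerns macrophages that lack the alpha chain of the IL-10 receptor. The mice were C57BL/6 bone marrow chimeras, labelled as 4 weeks after chimerism. The ending ly6g was read as injection of an antibody against Ly6G, the surface protein by which mouse neutrophils are depleted, and igg as control immunoglobulin. The treatment label goes against these titles, because it gives all libraries of the table the same anti-ly6g injection. The titles were followed, and every statement below is about libraries so titled. A further 4 libraries of the table are titled wt and serve as a reference. The genotype of donors and hosts, the host macrophages that remain in a chimera, the antibody clone, dose and schedule, and any pooling of animals are not stated in the labels. Nothing in the labels says that the libraries of a group are separate animals, so p-values measure only the spread between libraries, which may be technical.

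Neutrophils are short-lived granulocytes that enter inflamed gut in large numbers, and macrophages take up and digest them when they die. Antibodies against Ly6G remove neutrophils from the blood of mice and are used to learn which parts of an inflammation depend on these cells. IL-10 acts on gut macrophages through a receptor of which Il10ra encodes the ligand-binding chain, and its loss leaves these cells in a pro-inflammatory state. The comparison asks how macrophages with this defect differ when neutrophils are targeted.

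The cells were sorted as CD45+ CD11b+ CD64+ cells with intermediate CD11c that lacked Ly6c and CD103, which is a macrophage gate and leaves neutrophils out. The values are normalised reads per gene, that is, reads divided by 1 factor per library. Reads could be recovered in 5 of the 6 libraries and ranged from 1751037 in ko_ly6g 7 to 4525047 in ko_ly6g 5. Defining macrophage genes were present in every library: Csf1r, the receptor for the macrophage growth factor, held 1746, 1435 and 2175 normalised reads in ko_igg 14, 16 and 18 and 861, 2585 and 2020 in ko_ly6g 5, 6 and 7. Fcgr1, which encodes the CD64 of the gate, lay between 324 and 481 in ko_igg and between 176 and 591 in ko_ly6g. Genes of gut epithelium made up 2.90 to 3.62% of the values in ko_igg and 2.89 to 3.47% in ko_ly6g, with ranges that overlap, and the part of such RNA in the results was not tested. No mast cell or eosinophil marker of the lists was among the rows used here.

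The libraries did not group by antibody. By rank correlation across genes, ko_ly6g 5 was closest to ko_igg 18 (Spearman 0.94) and farther from its own group (0.87 with ko_ly6g 6 and 0.86 with ko_ly6g 7). In turn ko_ly6g 6 and 7 correlated at 0.94 and 0.93 with ko_igg 14, about as closely as with each other (0.95). Single genes show the same split. B2m, the light chain of MHC class I, held 6071 and 7409 normalised reads in ko_igg 14 and 16 but 1002 in ko_igg 18, and 3971 and 3193 in ko_ly6g 6 and 7 but 544 in ko_ly6g 5. B2m and Aqp8, below, were picked as examples after their values were seen. One reference library, wt 1, stood apart from all others (0.61 to 0.81). Many differences moved when ko_igg 18, ko_ly6g 5 or both were left out. Values without them stand beside many such results but not all, so a result without such a value may move as well.

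**Figure D1:**
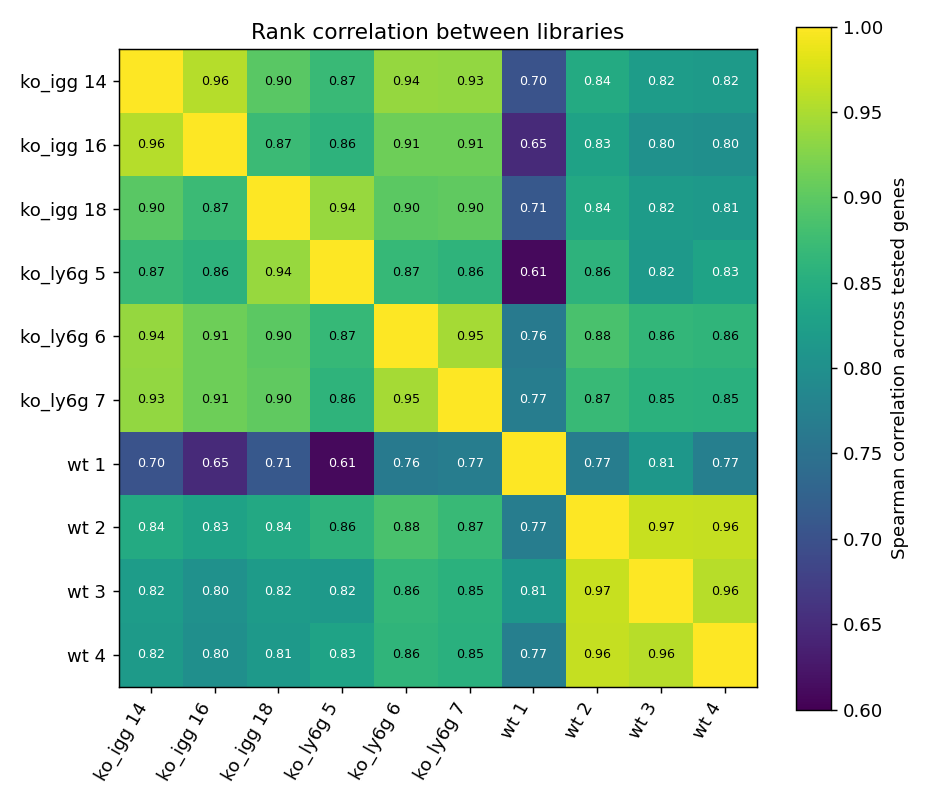
Spearman rank correlation across the 6594 tested genes (colour, and number in each cell) for every pair of the 10 libraries of the table. The pair ko_igg 18 and ko_ly6g 5 reaches 0.94, above the 0.86 to 0.87 of ko_ly6g 5 with the other 2 ko_ly6g libraries, and wt 1 is low with all.

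No gene differed between ko_ly6g and ko_igg at an adjusted p under 0.05 (limma, Benjamini-Hochberg over all genes): 0 of 6594 tested genes (0%) were called, and the smallest adjusted p was 0.99980. At an unadjusted p under 0.05 there were 127 genes (1.93%), 69 higher (1.05%) and 58 lower (0.88%) in ko_ly6g. In 488 genes (7.4%) the 3 ko_ly6g libraries did not overlap the 3 ko_igg libraries, with ko_ly6g higher in 236 (3.58%) and lower in 252 (3.82%). Neither edgeR nor DESeq2 on the recovered reads called a gene at an adjusted p under 0.05. Both fits lacked ko_igg 16 and wt 3, whose reads were not recovered. At an unadjusted p under 0.05 edgeR had 47 genes and DESeq2 69. In the limma fit 606 genes (9.19%) were called between ko_igg and wt and 286 (4.34%) between ko_ly6g and wt. These comparisons share the wt libraries and the difference between the counts was not tested, so the counts do not show that ko_ly6g is closer to wt.

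The precision was moderate for most genes. The 95% interval of the log2 difference had a median reach of 0.55 to either side of the estimate, and for 5113 genes (77.5%) the whole interval lay within a 2-fold change in either direction. For 6474 genes (98.2%) it lay within a 4-fold change. Only 64 genes had an estimated difference above 2-fold.

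One other way of fitting did call genes. When each library was weighted by how well it fitted its group, 78 genes (1.18%) were called, 55 higher and 23 lower in ko_ly6g. That fit gave ko_igg 14 a weight of 4.28 and ko_igg 18 one of 0.37, ko_ly6g 6 one of 2.22 and ko_ly6g 5 one of 0.30, and wt 1 one of 0.13, so it rests mostly on ko_igg 14 and ko_ly6g 6. Without ko_igg 18 altogether, or without ko_ly6g 5, no gene was called, though 304 and 218 genes had an unadjusted p under 0.05. Without wt 1 there were also 0 calls and 299 such genes. In 23 of the 55 higher and 11 of the 23 lower genes called by weighting, the libraries of the groups did not overlap.

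Il10ra was lower in both ko groups than in wt, with its lowest levels in ko_ly6g. It held 111, 77.9 and 87.7 normalised reads in ko_igg 14, 16 and 18 and 32.2, 65.1 and 41.2 in ko_ly6g 5, 6 and 7. The wt libraries held 247 to 827, so the lowest of them lay above every ko library, and the ko groups did not overlap each other. The log2 difference between ko_ly6g and ko_igg was -1.03 (SE 0.43, unadjusted p = 0.0352 from limma) and did not pass the adjusted threshold. Against wt it was -1.99 in ko_igg and -3.02 in ko_ly6g, with adjusted p of 0.0125 and 0.00254 (limma). The ko_ly6g mean of Il10ra, 46.2, lies under the level set for testing, while the ko_igg mean, 92.3, lies above it. The mean by which Il10ra was tested, and later picked by its unadjusted p, includes the high wt values.

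Neutrophil transcripts were present in the sorted macrophages of both groups, with no common direction between them. Of 22 markers, 13 were in the table, 8 of them high enough to be tested, and none was called. Of the 8 tested, 4 had an estimate above 0 and 4 below, with a median log2 difference of -0.02 against -0.00 over all tested genes. That median was -0.54 without ko_igg 18, 0.48 without ko_ly6g 5 and 0.14 without both. The genes of neutrophil granule proteins Elane, Mpo, Camp, Ngp, Mmp8 and Mmp9 and the receptor gene Cxcr2 are not among the rows used here. Because the sort leaves neutrophils out, these values say nothing on whether neutrophils were depleted in the tissue.

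S100a9, a subunit of calprotectin and one of the most abundant neutrophil transcripts, held 305, 463 and 26.2 normalised reads in ko_igg 14, 16 and 18 and 16.7, 796 and 925 in ko_ly6g 5, 6 and 7. It was thus low in 1 library of each group, ko_igg 18 and ko_ly6g 5, and the groups overlapped widely. The log2 difference was 0.59 with an SE of 1.46, and it was -0.68 without ko_igg 18, 2.45 without ko_ly6g 5 and 1.19 without both. In wt the gene lay between 1.84 and 8.93, under every ko library. Its partner S100a8 lay between 26.2 and 67.998 in ko_igg, lowest in ko_igg 18, and held 23.3, 113 and 97.6 in ko_ly6g, with the same low libraries. Retnlg, a resistin-like gene of neutrophils, followed that order too, with 29.8, 54.7 and 3.42 against 3.58, 38.1 and 64.1.

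Ly6g itself, the gene of the antibody's target, was read at 140, 203 and 54.6 in ko_igg 14, 16 and 18 and at 35.8, 290 and 87.0 in ko_ly6g 5, 6 and 7. The groups overlapped, and the log2 difference was -0.26 with an SE of 0.67, or -0.79 without ko_igg 18, 0.45 without ko_ly6g 5 and -0.09 without both. It lay at 45.1 to 79.6 in wt, so ko_igg 18 and ko_ly6g 5 were no higher than wt. Ly6g belongs to a family of similar neighbouring genes that can share reads, which makes its level uncertain. Csf3r, the receptor for the neutrophil growth factor G-CSF, lay at 116 to 187 in ko_igg and 58.5 to 156 in ko_ly6g. Il1r2, a decoy receptor for IL-1, spread from 37.6 to 119 and from 17.3 to 163.

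Among the 8 tested neutrophil markers, G0s2 and Cd177 had groups that did not overlap, in opposite directions. Over all tested genes the groups did not overlap in 7.4%. G0s2, an inhibitor of triglyceride breakdown, held 266, 225 and 129 normalised reads in ko_igg 14, 16 and 18 and 101, 98.3 and 128 in ko_ly6g 5, 6 and 7. Its lowest ko_igg and highest ko_ly6g libraries nearly touched, and the log2 difference was -0.86 (SE 0.33, unadjusted p = 0.0245 from limma). Against wt, at 9.44 to 16.5, it was higher by 3.89 in ko_igg and by 3.02 in ko_ly6g on the log2 scale, with adjusted p of 9.4e-05 and 0.00053 (limma).

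Cd177, a surface protein of neutrophils, held 524, 687 and 931 in ko_igg and 1172, 1034 and 940 in ko_ly6g, against 455 to 716 in wt. Every ko_ly6g library was above every ko_igg library, by 0.59 on the log2 scale (SE 0.26, unadjusted p = 0.0475 from limma). Hdc, the histamine-forming enzyme, was below the level needed for the test; it lay at 82.0 to 114 in ko_igg and at 30.7 to 56.4 in ko_ly6g, without overlap. Lcn2, an iron-binding antimicrobial protein, held 216, 235 and 162 in ko_igg and 170, 312 and 375 in ko_ly6g, far above the 2.10 to 8.93 of wt. Ltf and Asprv1, also below that level, and Ceacam1 overlapped between the groups. The summed level of the 13 markers was 3562 to 4590 in ko_igg and 4591 to 5048 in ko_ly6g. The difference of 0.27 on the log2 scale had a two-sided exact permutation p of 0.1, the smallest that 3 against 3 libraries can give. The groups almost touched, at 4590.34 in ko_igg 16 and 4590.51 in ko_ly6g 7. As a share of all values they overlapped, at 0.129 to 0.179% in ko_igg and 0.172 to 0.181% in ko_ly6g. Ceacam1, which epithelium also makes, alone held 1596 to 3012 of the summed level in ko_ly6g, and Cd177 held 940 to 1172. In wt, too, Cd177 lay at 455 to 716, while Lcn2 lay at 2.10 to 8.93. Which cells the Cd177 reads come from was not tested.

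**Figure D2:**
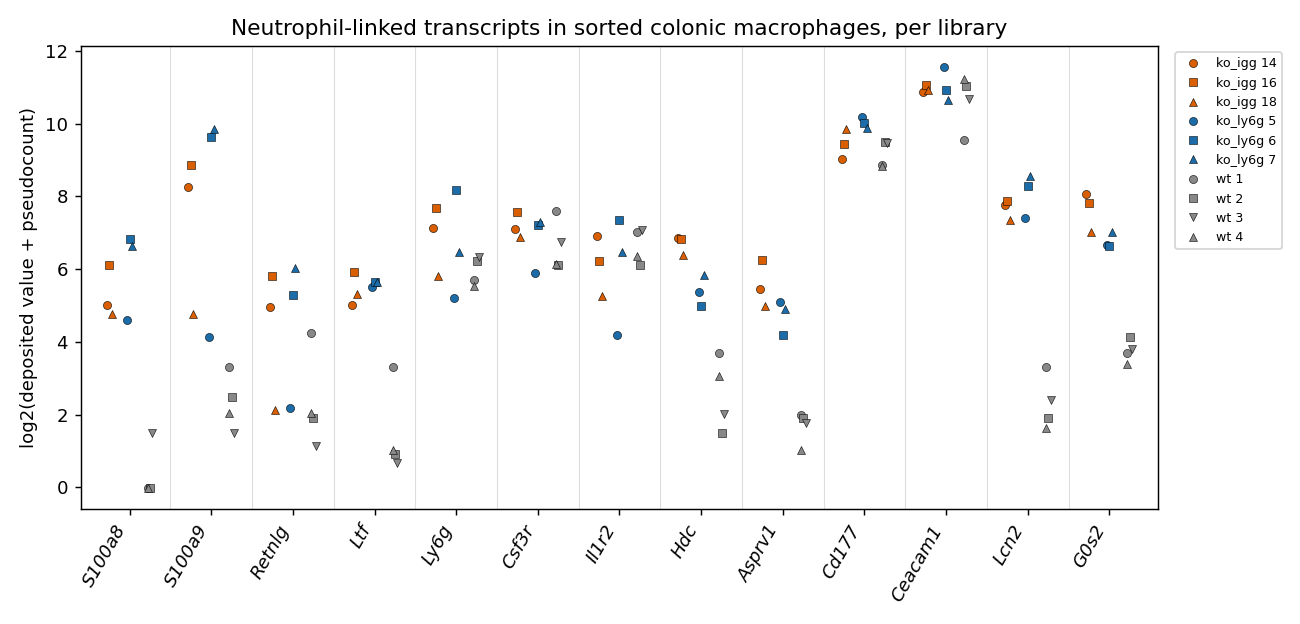
Level of each of the 13 listed neutrophil markers on the log2(value + pseudocount) scale, 1 point per library: ko_igg (orange), ko_ly6g (blue) and wt (grey). S100a9 is low in ko_igg 18 and ko_ly6g 5 and high in the other ko libraries, while G0s2 and Cd177 are separate between the ko groups in opposite directions.

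Signals that macrophages send to neutrophils, and genes for clearing dead cells, had no called member. Of 10 tested neutrophil chemoattractants and growth factors, none was called and in none were the groups apart, and the median log2 difference was 0.07, or -0.10 without ko_igg 18 and 0.37 without ko_ly6g 5. Cxcl2, a chemokine that draws neutrophils, held 3343, 2258 and 2184 normalised reads in ko_igg 14, 16 and 18 and 1160, 2949 and 2308 in ko_ly6g 5, 6 and 7. The genes for the uptake of apoptotic cells, 25 tested, had a median of -0.04, and those of lipid efflux through the liver X receptors, 19 tested, one of -0.03. Without ko_igg 18 and ko_ly6g 5 these medians were 0.10 and 0.22. The groups were apart in 2 of the 25 uptake genes, near the 7.4% of all genes, and in 0 of the 19 efflux genes.

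The genes with the smallest unadjusted p were picked among those above the median level whose groups did not overlap, 12 in each direction; none is a call. Hao2, a peroxisomal hydroxyacid oxidase, had the smallest p of all, but both its ko means lie under the level set for testing, and it was tested and picked only through its high level in wt. It held 8.06, 8.38 and 7.97 normalised reads in ko_igg 14, 16 and 18 and 35.2, 112 and 38.1 in ko_ly6g 5, 6 and 7. The ko_ly6g libraries were all higher, but remained far under the 229 to 1341 of wt. The log2 difference was 2.57 (SE 0.62, unadjusted p = 0.00182 from limma).

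Sycn, a secretory granule protein, lay in the same order, with 73.4, 83.8 and 146 in ko_igg, 191 to 443 in ko_ly6g and 1557 to 4077 in wt. Gsdmc4, one of several near-identical gasdermin C genes whose reads may be shared, held 79.7 to 104.8 in ko_igg, 140 to 323 in ko_ly6g and 301 to 882 in wt. In Hao2 and Sycn every ko_ly6g library stood between ko_igg and wt, and in Gsdmc4 the highest of them reached the lowest wt library. Their log2 differences between ko_ly6g and ko_igg were 2.57 for Hao2, 1.45 for Sycn and 1.14 for Gsdmc4. Within wt, all of them were lowest in wt 1. The summed epithelial markers were lowest there too, at 49488 against 96573 to 99645 in the other wt libraries. These sums were alike between the ko groups, and which cells the transcripts come from was not tested.

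Mgl2, a galactose-binding lectin of macrophages and dendritic cells, had the largest difference of the 24 genes. It held 19.4, 3.45 and 17.1 in ko_igg 14, 16 and 18 and 25.7, 310 and 70.2 in ko_ly6g 5, 6 and 7, with 232 to 887 in wt. The groups did not overlap, yet ko_ly6g 5 lay close to ko_igg and ko_ly6g 6 within the range of wt. The log2 difference was 2.83 (SE 0.86, unadjusted p = 0.00754 from limma), or 3.97 without ko_igg 18 and ko_ly6g 5. The ko_igg mean of Mgl2, 13.3, lies under the level set for testing, and the mean by which it was picked includes the high wt values.

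Il18, a cytokine of macrophages and epithelium, and Il18bp, the soluble protein that neutralises it, differed in opposite directions. Il18 held 127, 129 and 97.9 normalised reads in ko_igg 14, 16 and 18 and 219, 225 and 150 in ko_ly6g 5, 6 and 7, a log2 difference of 0.73 (SE 0.29). Il18bp held 388, 425 and 468 in ko_igg and 189, 285 and 354 in ko_ly6g, a difference of -0.67 (SE 0.23), and 57.5 to 80.4 in wt. In both genes the groups were apart, with ko_ly6g 7 nearest to ko_igg. Il18bp differed by -0.42 without ko_ly6g 5 and by -0.35 with ko_igg 18 left out as well. Their unadjusted p from limma was 0.0274 and 0.0148, and neither was called.

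Other genes on the higher side were Hist1h1c (a linker histone), Clcn4 (a chloride-proton exchanger), Cbfa2t3 (a transcriptional co-repressor), Rpl37 (a ribosomal protein), Naa38 (a subunit of an acetyltransferase) and BC002163, at log2 differences of 0.40 to 0.78.

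On the lower side Trem2, a lipid-sensing receptor of macrophages, had the largest difference. It held 332, 182 and 207 normalised reads in ko_igg 14, 16 and 18 and 71.0, 104 and 145 in ko_ly6g 5, 6 and 7, against 158 to 482 in wt. All ko_ly6g libraries lay below both other groups. The log2 difference was -1.17 (SE 0.42, unadjusted p = 0.0172 from limma). Cfb, complement factor B, held 1540, 1441 and 1825 in ko_igg and 968, 1032 and 1219 in ko_ly6g, a difference of -0.58. Wars, the tryptophanyl-tRNA synthetase that interferon-gamma induces, lay at 1334 to 2086 and at 1195 to 1256, a difference of -0.47. Sod2, the mitochondrial superoxide dismutase, lay at 1315 to 1430 and at 969 to 1094, a difference of -0.40. Gsr (glutathione reductase), Mt1 (a metallothionein), Bhlhe40 (a transcription factor) and Tuba1b (a tubulin) differed by -0.55 to -0.42, and the collagen genes Col1a1 and Col1a2 are described with the stromal markers.

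Of these 24 genes, 11 were called when libraries were weighted, among them Hao2, Sycn, Hist1h1c, Clcn4, Gsdmc4 and Cbfa2t3 on the higher side and Trem2, Mt1, Col1a1 and Col1a2 on the lower. Il10ra, Mgl2, Il18 and Il18bp were not.

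**Figure D3:**
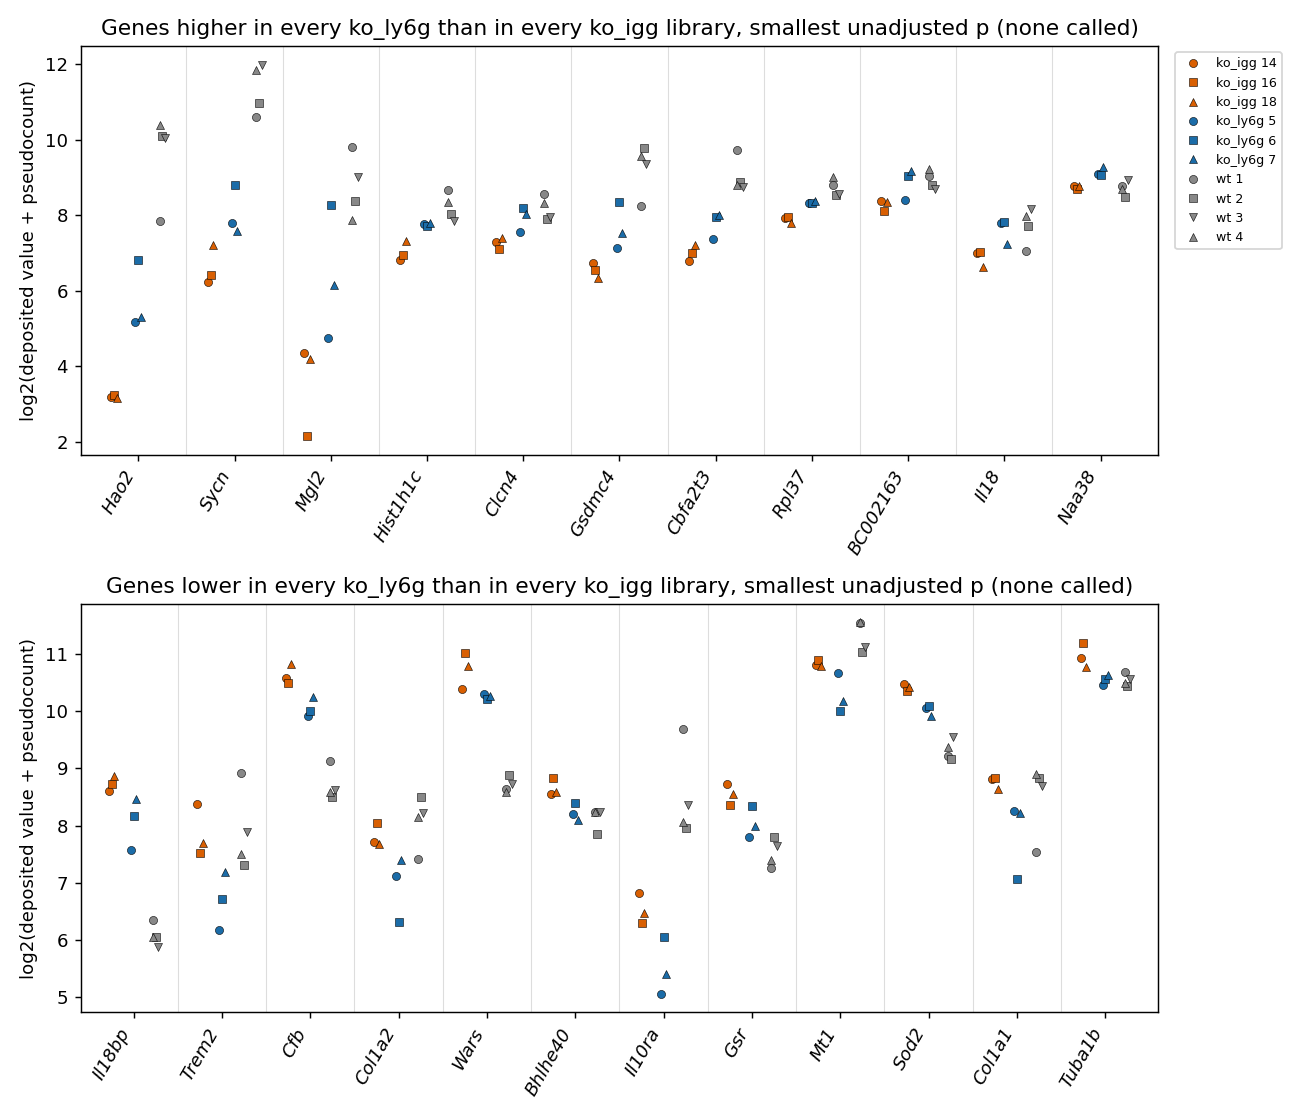
Levels on the log2(value + pseudocount) scale, 1 point per library, of 11 of the 12 higher genes and the 12 lower genes with the smallest unadjusted p whose ko groups do not overlap: ko_igg (orange), ko_ly6g (blue), wt (grey). The genes were chosen for this separation, and none passed the adjusted threshold; the blue points of Hao2 and Sycn lie between orange and grey.

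Genes of antimicrobial defence had no call, and several of the largest estimates were below 0. Of 24 tested genes of antimicrobial and oxidative defence, 16 had an estimate below 0 and 6 had groups apart on the lower side, against 3.82% of all genes, and the median log2 difference was -0.26. That median went to -0.02 without ko_ly6g 5 and to -0.01 with ko_igg 18 left out as well. Acod1, which makes the antimicrobial metabolite itaconate, held 221, 375 and 203 normalised reads in ko_igg 14, 16 and 18 and 66.8, 73.7 and 108 in ko_ly6g 5, 6 and 7. Every ko_ly6g library was below every ko_igg library and above the 0.917 to 17.9 of wt, and the log2 difference was -1.65 (SE 0.71, unadjusted p = 0.0405 from limma).

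Saa3, an acute-phase protein, held 3602, 4212 and 2069 in ko_igg and 687, 753 and 1805 in ko_ly6g, a difference of -1.69 (SE 0.82); wt lay at 27.5 to 432. Hmox1, the haem-degrading oxygenase, was even in ko_igg at 503 to 509 and held 194, 333 and 377 in ko_ly6g, a difference of -0.80, or -0.52 without ko_igg 18 and ko_ly6g 5. Of 20 tested GTPases and regulators that interferon-gamma induces, Ido1 and Gbp2 had groups apart on the lower side, against 3.82% of all genes. The median of that list was -0.10, or 0.24 without those 2 libraries. Ido1, the tryptophan-degrading enzyme, held 834, 1390 and 504 in ko_igg, 239, 206 and 256 in ko_ly6g and 2.98 to 93.6 in wt. Its log2 difference was -1.84, with an SE of 0.87.

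No cytokine or monocyte gene was called either. Of 8 tested pro-inflammatory cytokines 6 were below 0, with a median of -0.44 that turned to 0.03 without ko_ly6g 5 and was -0.09 with ko_igg 18 left out as well. Tnfsf9, a co-stimulatory ligand, held 257, 206 and 143 in ko_igg and 63.8, 88.4 and 168 in ko_ly6g, a difference of -0.99 with overlap. The lymphotoxin gene Ltb differed by -0.59, or by -0.32 without ko_igg 18. Of 14 tested monocyte markers 11 were below 0, with a median of -0.33, which was -0.03 without ko_ly6g 5 and -0.08 without both. Their summed level differed by -0.15 on the log2 scale (two-sided exact permutation p = 0.7), and by 0.26 without ko_ly6g 5. Clec4e, a receptor for mycobacterial glycolipid, held 339, 293 and 237 in ko_igg and 66.2, 90.9 and 198 in ko_ly6g, and Fn1, fibronectin, held 265, 156 and 110 against 105.6, 71.2 and 99.2. In both genes, of the 14 tested, the groups were apart on the lower side, against 3.82% of all genes. The differences were -1.42 (SE 0.59) and -0.86 (SE 0.30). Ccl5, a chemokine for T cells, was abundant but uneven, at 5049, 5071 and 3296 in ko_igg and 777, 1643 and 4903 in ko_ly6g.

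Genes of antigen presentation by MHC class I had 15 of 16 estimates below 0, where 49.8% of all tested genes were above 0, and a median of -0.14. That median was 0.01 without ko_igg 18. The groups were apart on the lower side in 3 of the 16, against 3.82% of all genes, among these H2-K1, at 9751 to 10490 in ko_igg and 7701 to 8904 in ko_ly6g, and H2-Q7, whose reads near-identical genes can share. MHC class II genes, 9 tested, had a median of 0.13, which was 0.56 without ko_igg 18 and ko_ly6g 5.

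No gene of metabolism or growth was called, and the lists went in different directions. Of 34 tested genes of oxidative phosphorylation 28 were above 0, against 49.8% of all tested genes, and 5 had groups apart on the higher side, against 3.58% of all genes. The median was 0.19, or 0.09 without ko_ly6g 5. Cox5b, a subunit of cytochrome c oxidase, held 672, 688 and 569 normalised reads in ko_igg 14, 16 and 18 and 1200, 916 and 1042 in ko_ly6g 5, 6 and 7, a log2 difference of 0.71 (SE 0.30, unadjusted p = 0.0395 from limma). The complex I subunits Ndufb9 and Ndufv2 differed by 0.48 and 0.44 and the oxidase subunit Cox4i1 by 0.32, each with groups apart.

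Of 27 tested cytosolic ribosomal protein genes 21 were above 0, with a median of 0.20. Processed copies of these genes can share their reads. Glycolysis and hypoxia genes had 19 of 20 estimates below 0 with a median of -0.13, or -0.26 without ko_igg 18 and ko_ly6g 5, and Slc16a3, a lactate exporter, was apart, at 311 to 335 and 162 to 274. Cholesterol synthesis genes had 16 of 18 below 0 with a median of -0.27. That median was -0.14 without ko_ly6g 6 and -0.17 without ko_igg 18. Cell cycle genes had 22 of 26 below 0 with a median of -0.32, or -0.55 without ko_igg 18. Mki67, a marker of dividing cells, held 212, 308 and 128 in ko_igg and 64.4, 108 and 175 in ko_ly6g, with overlap, and Mcm7, a replication helicase subunit, lay at 238 to 356 and 203 to 221. All members of a list were measured in the same libraries, so these counts are no test.

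Stress genes gave single differences rather than a common one. Atf5, a transcription factor of the unfolded protein response, held 182, 300 and 182 in ko_igg and 135, 125 and 119 in ko_ly6g, a difference of -0.76 (SE 0.22, unadjusted p = 0.0049 from limma), and its list of 23 genes had a median of 0.08. Of the chaperones, Dnaja1 was higher by 0.75 and Hspb1 lower by 0.94 on the log2 scale in ko_ly6g, with a list median of -0.06, or -0.14 without ko_igg 18.

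Markers of macrophage identity and of other cells gave a mixed picture. Of 29 tested resident macrophage markers 19 were above 0, against 49.8% of all tested genes. None had groups apart, against 7.4% of all genes. The median was 0.13, or 0.58 without ko_igg 18 and ko_ly6g 5. Cbr2, a carbonyl reductase of resident macrophages, held 124, 194 and 383 in ko_igg and 762, 373 and 377 in ko_ly6g, a difference of 1.18 (SE 0.40). Of the dendritic cell markers, 6 were tested and none was called. Besides Mgl2, described above, the groups were apart in Clec10a, a related lectin, at 19.4 to 23.2 in ko_igg and 24.5, 63.9 and 58.0 in ko_ly6g. Clec10a was tested only through its level in wt, and Mgl2 lies under that level in ko_igg, so no count or median of this list is given. Batf3, a transcription factor of these cells, held 67.7, 69.5 and 157 in ko_igg and 94.9, 174 and 195 in ko_ly6g. The summed dendritic markers overlapped, at 1523 to 1884 and 1589 to 2928, and the defining genes Zbtb46, Flt3, Xcr1 and Clec9a were not among the tested genes.

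Stromal and endothelial genes were below 0 in 9 of 10 cases, with a median of -0.61. Col1a1, a chain of type I collagen, held 449, 452 and 400 normalised reads in ko_igg 14, 16 and 18 and 304, 133 and 297 in ko_ly6g 5, 6 and 7, a difference of -0.92 (SE 0.39). Col1a2, the other chain, held 208, 264 and 203 and then 138, 78.6 and 168, a difference of -0.87 (SE 0.32). Tagln, a smooth muscle protein, differed by -0.53, or by -0.95 without ko_igg 18 and ko_ly6g 5. The list median was -0.35 without ko_ly6g 6. The summed level of the 14 listed genes was 2780 to 3381 in ko_igg and 1578 to 2665 in ko_ly6g, -0.55 on the log2 scale with a two-sided exact permutation p of 0.1, the smallest possible. It came to 0.101 to 0.132% of the values in ko_igg and 0.0565 to 0.0998% in ko_ly6g. Fewer cells of a type and less RNA per cell cannot be told apart in such bulk libraries.

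The summed epithelial markers were alike, at 76289 to 92841 in ko_igg and 77096 to 93584 in ko_ly6g (log2 difference 0.03, two-sided exact permutation p = 0.7). Some single epithelial genes were uneven between libraries, and none of the 29 tested was called. Aqp8, a water channel of surface colonocytes, held 22.6, 26.1 and 727 in ko_igg and 847, 316 and 203 in ko_ly6g. The groups overlapped, and ko_igg 18 lay nearest to ko_ly6g 5. The log2 difference of Aqp8 was 2.29, or 3.91 without ko_igg 18 and 3.33 without both. On the recovered reads it was 0.31 with edgeR and 0.27 with DESeq2. Those fits lacked ko_igg 16, and limma without that library gave 1.54. Car4, a carbonic anhydrase of the same cells, held 68.5, 172 and 986 against 595, 2045 and 590, a difference of 1.98, or 3.33 without ko_igg 18 and ko_ly6g 5. The goblet cell genes Clca1 and Fcgbp held 189 to 486 and 210 to 376 in ko_igg and 392 to 653 and 394 to 528 in ko_ly6g. Among the 29 tested epithelial genes 18 were above 0, the median was 0.13, or 0.04 without those 2 libraries, and only Fcgbp had groups apart, against 7.4% of all genes. Summed T and NK cell genes lay at 289 to 457 and 198 to 387, and summed B and plasma cell genes at 1047 to 1786 and 1693 to 1754, both with overlap.

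**Figure D4:**
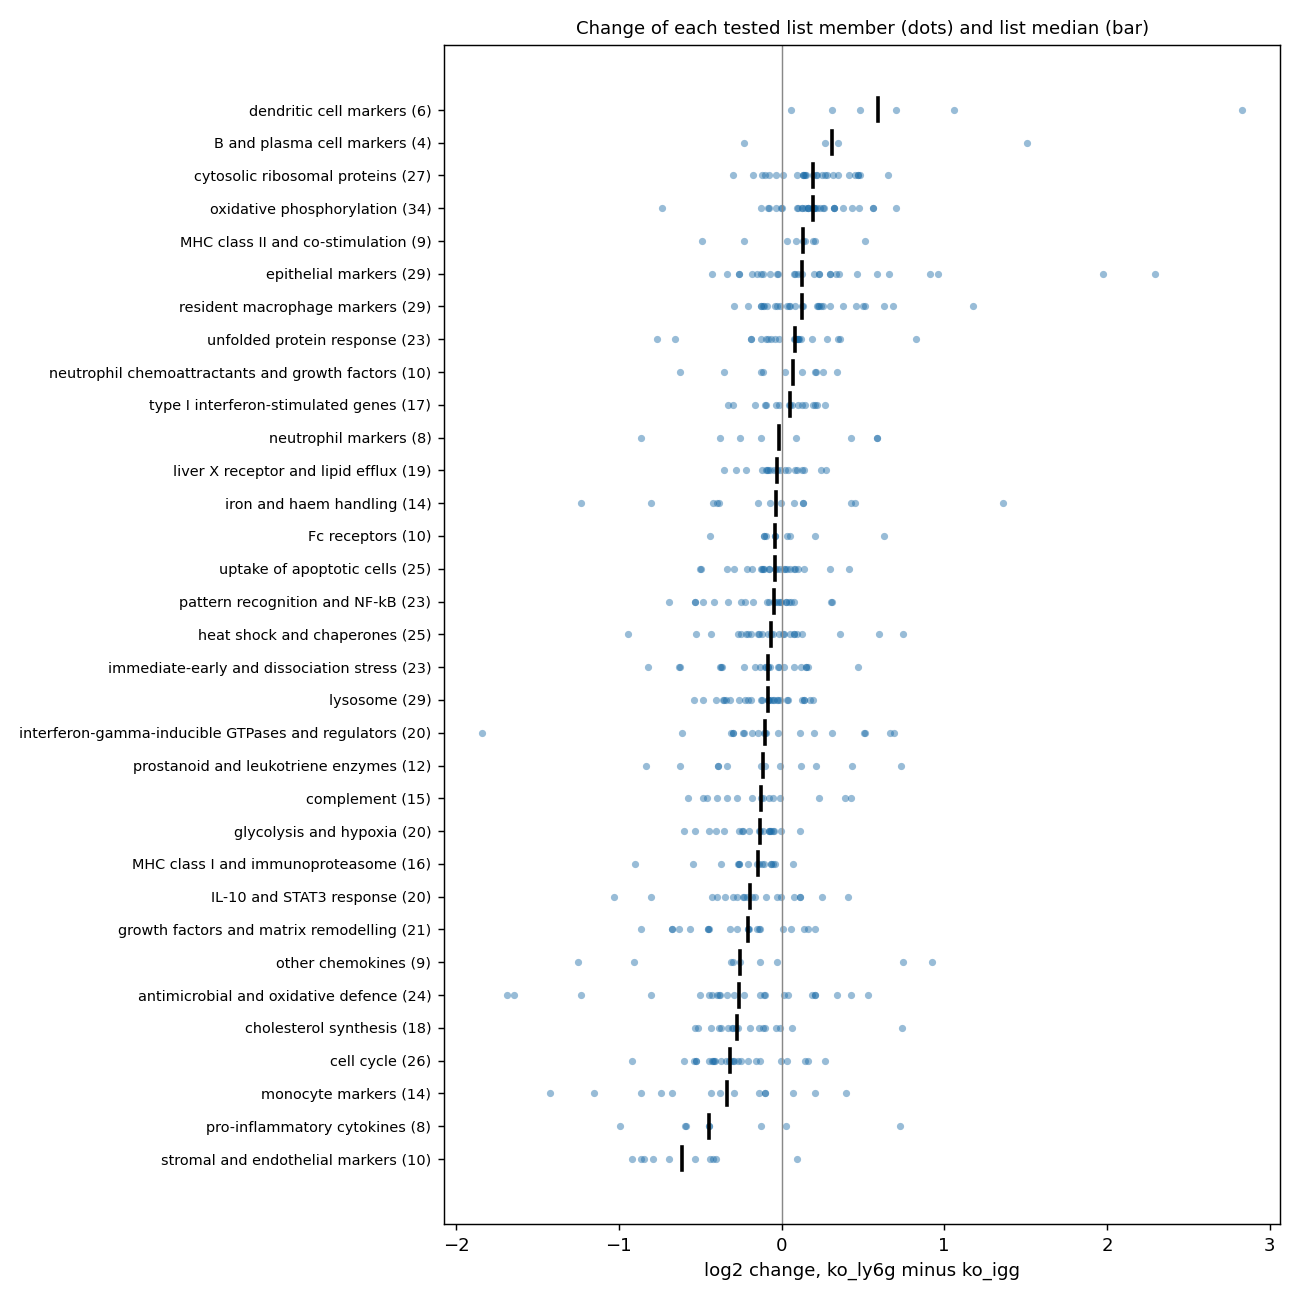
Log2 difference between ko_ly6g and ko_igg of every tested member (dots) of the gene lists with at least 3 tested members, with the list median as a bar and the number tested in brackets. Most medians lie within 0.3 of 0, and that of the stromal and endothelial markers is lowest at -0.61; the dendritic cell list at the top holds members tested only through their level in wt or ko_ly6g.

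Genes called in the other tables of the series, whose libraries are separate from these 6, were then looked up. Between the libraries titled IL10R and CXhet of the first table, 588 of 6766 genes (8.69%) were called. In the rescue table, calls numbered 655 of 6612 (9.91%) between IL10R and CX and the share between IL10R_P19 and IL10R was 2.43% of the 6612 tested genes. Because no gene at all was called between ko_ly6g and ko_igg, none of them could be. Of the 255 genes higher in IL10R in the first table and tested here, 73.7% had an estimate below 0, with a median of -0.14, and 11.8% had groups apart on the lower side, against 3.82% of all genes. Of the 223 genes lower there, 72.2% were above 0, with a median of 0.20, and 9.87% had groups apart on the higher side, against 3.58% of all genes. Over all tested genes 49.8% were above 0. Relative to the wt mean, the medians of the higher genes were 0.75 in ko_igg and 0.59 in ko_ly6g, and those of the lower genes -0.93 and -0.78.

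This shift was small and uneven over libraries. For the genes higher in IL10R, the median above the wt mean was 0.79, 0.73 and 0.70 in ko_igg 14, 16 and 18 and 0.30, 0.75 and 0.68 in ko_ly6g 5, 6 and 7, with ko_ly6g 5 well under the others. Without ko_ly6g 5 the median difference between the groups was -0.00, and with ko_igg 18 left out as well it was 0.01. For the genes lower in IL10R the median was 0.15 without ko_ly6g 5 and 0.24 without both. The lists from the rescue table had medians of -0.00 and -0.01 for IL10R against CX. For IL10R_P19 against IL10R the medians were 0.03 and 0.01. With all libraries, 49.0 to 54.5% of the genes of these lists were above 0. Without ko_igg 18 and ko_ly6g 5 the medians were -0.04, 0.26, 0.31 and 0.04, in the same order.

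**Figure D5:**
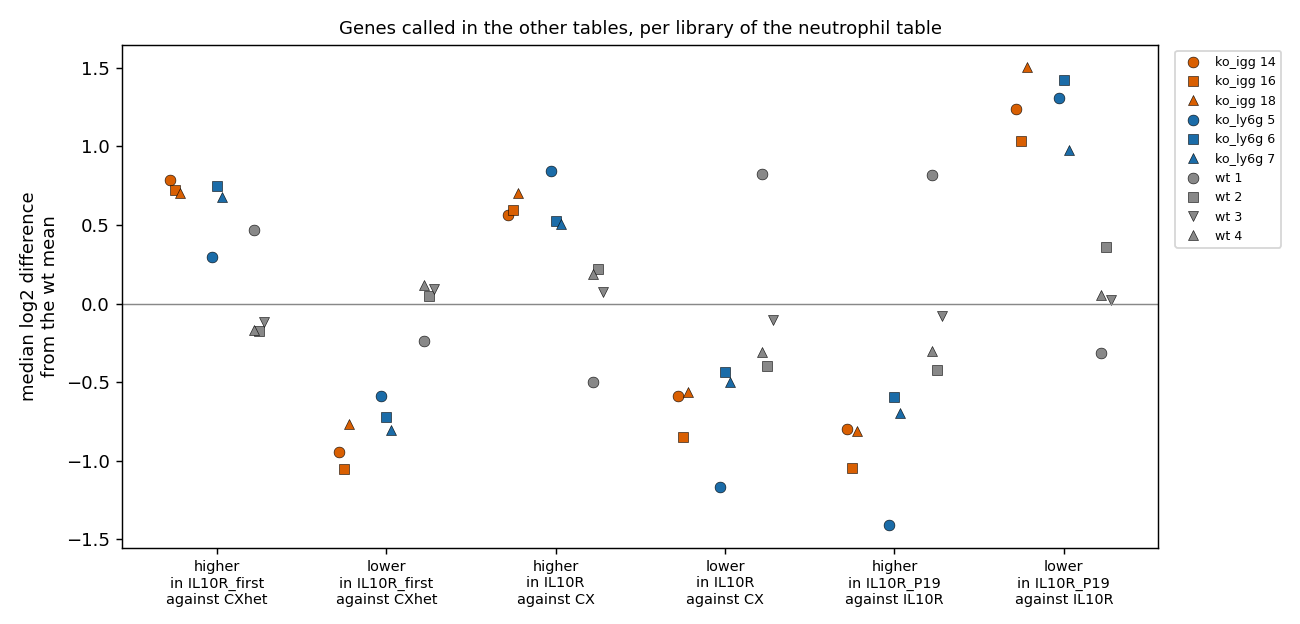
Median log2 difference from the wt mean, per library of the neutrophil table, over the genes called higher or lower in the first and rescue tables: ko_igg (orange), ko_ly6g (blue), wt (grey). In the leftmost list ko_ly6g 5 lies at 0.30 and the other 5 ko libraries between 0.68 and 0.79; the ranges of the blue and orange points overlap in all 6 lists.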

How the data were processed

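RNA of sorted colonic macrophages was captured by oligo-dT and amplified by in vitro transcription, per the labels' protocols. The submitters' processing notes name HISAT 0.1.6, HOMER, bcl2fastq and mm9; which annotation was used, whether by strand, and how multiply mapping reads were treated is not given in the sources used here. The deposited values are signal values: the reads of a gene over 1 factor per library, as read from the values (100% whole within 0.01 read in 8 of the 10 libraries; not claimed for ko_igg 16 and wt 3). The 10 libraries held 8793 genes, of which 8610 symbols were found in the gene name table. Coordinates are left out because the reference genome at hand is of another build. Such scaling hides any change common to all genes.

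A count test was the choice for raw counts; the normalised values called for limma instead. The scale was log2(value + 0.982), which understates changes of low genes, and genes with a mean in the lower quartile (up to 68.0) were removed. The mean runs over all 10 libraries, so 141 tested genes had both ko means under that level and passed through wt. One limma fit (limma 3.58.1, R 4.3.3) with trend and robust variances took in all 10 libraries. Alternatives were other pseudocounts, filters and scalings, library weights, fits of fewer libraries, and edgeR 4.0.16 and DESeq2 1.42.0 on the recovered reads of 8 libraries. Scripts were tested on simulated data. In the 7 pairs of libraries within a group whose reads were recovered, counting noise did not account for the difference (smallest chi-square per degree of freedom 4.92); pairs with ko_igg 16 or wt 3 could not be compared in this way.

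The comparison and the 37 gene lists were chosen with earlier results of these data known. Named genes are Il10ra, the listed neutrophil markers, up to 12 genes in each direction with the smallest unadjusted p above the median level and with groups apart (none being called), and, per list, members among the 4 with the smallest unadjusted p. Left out were predicted and sex-linked genes and antigen receptor segments. A few genes chosen this way are not reported here. Genes outside this rule are said to be so, or are sort markers.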

Additional observations from a re-analysis of the deposited data

Results flagged for a closer look

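The values below come from the wt reference libraries, the only group of 4 here. A value was picked out when 1 library lay much farther from its neighbour than the range of the others would lead to, by Dixon's ratio at its 95% critical value; chance picks out about 1 in 20 such groups, and 5 of 23 were. In wt 1, Il10ra held 827 normalised reads against 247 to 328 in the others. The summed resident macrophage markers came to 213380 in wt 1 against 65820 to 82032, and the summed B and plasma cell markers to 2018 against 997 to 1094. The summed epithelial markers were lower in wt 1, at 49488 against 96573 to 99645. In wt 3, Ido1 held 93.6 against 2.98 to 16.5. The groups ko_igg and ko_ly6g hold 3 libraries each and were not examined in this way.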

How the results depend on the processing

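No paired analysis was possible because ko_igg 14, 16 and 18 and ko_ly6g 5, 6 and 7 share no replicate number. The count of called genes was 0 in all fits except the fit with library weights, which called 78, and the fit of only ko_igg 14 and 16 and ko_ly6g 6 and 7, which called 1, Aqp8. That fit and the one that leaves out ko_igg 18 and ko_ly6g 5 were chosen after seeing the data. Leaving out each library in turn gave 0 calls. Of 1429 values of 60 named genes under the alternatives, 1389 kept their direction and side of the threshold, 20 were called under the alternative and 20 turned sign. The genes that turned sign were neutrophil markers with estimates near 0 or wide errors. Leaving out each library in turn, S100a9 ranged from -0.68 to 2.45, Ly6g from -1.04 to 0.45, Il1r2 from -0.80 to 0.79, Csf3r from -0.62 to 0.0757 and Ceacam1 from -0.16 to 0.29. With library weights Ceacam1 was -0.0159, Il1r2 0.17 and Ly6g 0.27. With edgeR Il1r2 was 0.16 and Ly6g 0.47, and with DESeq2 0.19 and 0.49, both fits lacking ko_igg 16 and wt 3. Without ko_igg 18 and ko_ly6g 5, in either fit, Ceacam1 was -0.18 and Il1r2 0.35. Of the summed levels, leaving out each library in turn gave -0.13 to 0.41 for resident macrophage, -0.42 to 0.26 for monocyte and -0.0424 to 0.12 for epithelial markers. The epithelial sum was -0.00312 when libraries were scaled to the same total and -0.00852 without ko_igg 18 and ko_ly6g 5. The cause of these moves was not tested. With 3 libraries a group, the 95% interval of the log2 difference reached 0.55 to either side in the median gene, and genes in the lower quartile of levels entered only the fit without that filter, which tested 8793 genes and called 0.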
